A study of Mus musculus with 2 samples.

Results

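The 10 genes described here encode S100 proteins and acute-phase alarmins. They were found by symbol among the 31053 genes of both count matrices, and all 10 were present: S100a4, S100a6, S100a8, S100a9, S100a10, S100a11, Saa3, Lcn2, Hp and Ltf. The cells came from the colons of CD45.1 recipient mice engrafted with CD45.2 donor bone marrow that lacked the IL-10 receptor (IL-10R KO, written KO) or lacked both the receptor and ceramide synthase 2 (IL-10R/CerS2 DKO, written DKO), so that loss of the receptor was common to both groups. The deletions were carried by blood-forming cells and their progeny, whereas the rest of the recipient was not deleted. The ages, sexes and number of mice behind each library are not given in the sources used here. The cells were a sorted fraction of the colon, chosen by the myeloid surface proteins CD11b, CD11c and CD64, and 1 droplet library of 3′ ends was made per genotype.

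With 1 library per genotype, genotype cannot be told apart from mouse, sort or library. No test was therefore run, and each interval given below is a 95% interval that reflects the counting of molecules alone. In KO there were 2584 barcodes and 12549471 UMIs (unique molecular tags, each counting 1 captured RNA molecule), and in DKO 742 barcodes and 3414944 UMIs. The filter on cells left 2443 KO cells and 730 DKO cells, and 1 barcode occurred in both libraries. Cers2, the targeted gene, had 408 UMIs in monocyte/macrophage-like cells of KO and 0 in those of DKO. Il10rb, the receptor gene deleted in both donors, had 38 and 9 UMIs in the same cells, and 3′ tags do not report a deletion elsewhere in a gene.

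S100 proteins are a family of small, mostly calcium-binding proteins. Members of the family act inside the cell on the cytoskeleton and membranes, and some of them, once released, act as danger signals. S100A8 and S100A9 pair to form calprotectin, which makes up much of the neutrophil cytosol, binds zinc and manganese and is measured in stool as a sign of gut inflammation. Lipocalin 2 (Lcn2) captures bacterial siderophores, lactoferrin (Ltf) binds iron, haptoglobin (Hp) binds free haemoglobin, and serum amyloid A3 (Saa3) is an acute-phase protein made outside the liver by macrophages and epithelium. S100A10 forms a complex with annexin A2 at the plasma membrane. S100A4, S100A6 and S100A11 are found in many motile cells.

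All 6 S100 genes lay on chromosome 3 of the mm10 (GRCm38) build. S100a4 (ENSMUSG00000001020), S100a6 (ENSMUSG00000001025), S100a8 (ENSMUSG00000056054) and S100a9 (ENSMUSG00000056071) were neighbours, at chr3:90603771-90606045, chr3:90612882-90624181, chr3:90668978-90670035 and chr3:90692632-90695721, with S100a9 on the minus strand and the others on the plus strand. S100a11 (ENSMUSG00000027907, chr3:93520488-93526287) and S100a10 (ENSMUSG00000041959, chr3:93555080-93564643) were neighbours further along the chromosome. The other 4 genes lay elsewhere, Saa3 at chr7:46711998-46715700, Lcn2 at chr2:32384633-32388252, Hp at chr8:109575128-109579172 and Ltf at chr9:111019271-111042767. The annotation used here has a protein-coding gene, Gm42674, that overlaps S100a4 on the same strand, so UMIs of the overlap could have been given to either or to neither.

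The sequences before the start of 4 genes are shown because S100a4, S100a8 and S100a9 are neighbours in the genome and were found in different cells, while Saa3 was the gene with the widest gap between the libraries in monocyte/macrophage-like cells. They are RefSeq sequences of build GRCm38.p6, written 5′ to 3′ on the strand of the gene, and each begins 250 bases before the RefSeq start and stops before the first base of the gene in the GENCODE annotation. Capitals mark the core of the promoter element TATAAA, or else a site of the C/EBP factors, TTGCNNAA, on either strand, and the S100a8 stretch holds neither. The stretches are chr3:90603520-90603769 (plus strand) for S100a4, chr3:90668821-90668977 (plus) for S100a8, chr3:90695722-90695971 (minus) for S100a9 and chr7:46715701-46715926 (minus) for Saa3.
S100a4: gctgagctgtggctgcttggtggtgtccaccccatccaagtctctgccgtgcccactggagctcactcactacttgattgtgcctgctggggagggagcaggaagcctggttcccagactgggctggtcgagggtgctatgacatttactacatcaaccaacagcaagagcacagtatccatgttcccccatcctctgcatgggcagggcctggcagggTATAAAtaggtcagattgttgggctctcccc
S100a8: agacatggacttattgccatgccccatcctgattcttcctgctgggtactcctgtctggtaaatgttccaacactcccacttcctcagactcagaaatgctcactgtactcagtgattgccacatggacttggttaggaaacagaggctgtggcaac
S100a9: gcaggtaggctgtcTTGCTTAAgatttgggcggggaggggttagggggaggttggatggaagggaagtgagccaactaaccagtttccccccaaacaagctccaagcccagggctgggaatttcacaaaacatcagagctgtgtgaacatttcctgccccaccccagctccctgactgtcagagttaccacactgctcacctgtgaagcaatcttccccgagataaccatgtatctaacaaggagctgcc
Saa3: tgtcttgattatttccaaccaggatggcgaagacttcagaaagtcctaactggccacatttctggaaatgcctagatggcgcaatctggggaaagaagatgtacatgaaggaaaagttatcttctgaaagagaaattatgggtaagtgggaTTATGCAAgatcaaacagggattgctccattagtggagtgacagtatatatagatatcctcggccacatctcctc

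The RefSeq table held 8 of the 10 genes, without S100a10 and Hp, and 4 motifs were searched on both strands in the 250 bases before each start. TATAAA began 31 bases before the start of S100a4 and 30 bases before that of S100a8, in the stretch of S100a8 that is not printed, and was found in 2 of 8 genes against 12.4% of all 32851 such windows in the table. TTGCNNAA was found in 4 of 8 genes against 9.56% of all windows, and began 236 bases before the start of S100a9, 99 before that of Saa3, 216 before that of Lcn2 and 75 before that of Ltf. The whole Lcn2 window lies inside the gene as GENCODE annotates it, which starts further upstream than the RefSeq start, so its match is not in front of the annotated gene. TGANTCA (AP-1) was found in 1 of 8, at 136 and 38 bases before the start of S100a11, against 6.75% of all windows. For kB sites, bound by NF-kB, only 1 form of the motif was searched, and it was found in 0 of 8 and in 1.41% of all windows. Other forms of the site were not searched, and neither was the sequence in front of the annotated Lcn2 gene. An absence of kB sites from these genes is therefore not shown. No matches overlapped, and a match of letters is not a measured binding site.

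Each cell was assigned to a class from 8 marker genes per lineage, none of them a gene described here. The sort was meant to exclude neutrophils and lymphocytes, yet cells with the markers of both were present. Neutrophil-like cells numbered 151 in KO and 42 in DKO, B cell-like cells 207 and 152, and T cell-like cells 252 and 97. Monocyte/macrophage-like cells, the labelled cell type, numbered 1392 in KO (57.0% of cells) and 285 in DKO (39.0%). They were split into monocyte-like (320 and 79), nonclassical monocyte-like (32 and 15), intermediate (337 and 61) and macrophage-like cells (519 and 129), and into cells with at least 3 of 8 genes headed by Arg1 and Nos2 (the Arg1-set, 184 KO cells and 1 DKO cell). Cells without a clear lineage, 394 in KO and 139 in DKO, are called unassigned, the other classes held at most 17 cells each, and in all 23.1% of KO cells and 24.5% of DKO cells lay within 1 marker of a boundary of the lineage assignment. The median neutrophil-like cell had 1622 UMIs in KO and 1550 in DKO, against 5566 and 5453 for monocyte/macrophage-like cells. Levels are therefore given as CPM, the UMIs of a gene scaled to a total of 1000000 UMIs in its class, which for 3′ tags are not divided by gene length.

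To find which cells were the source of each gene, the UMIs of a gene were divided among the classes. S100a8, S100a9 and Lcn2 came almost wholly from neutrophil-like cells, although these made up 6.18% of KO cells and 5.75% of DKO cells. S100a4 and S100a10 came mainly from monocyte/macrophage-like cells and were close to absent from neutrophil-like cells. S100a6 and S100a11 were found in both lineages, Hp was divided between them, and Saa3 came mainly from monocyte/macrophage-like cells in KO.

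**Figure D1:**
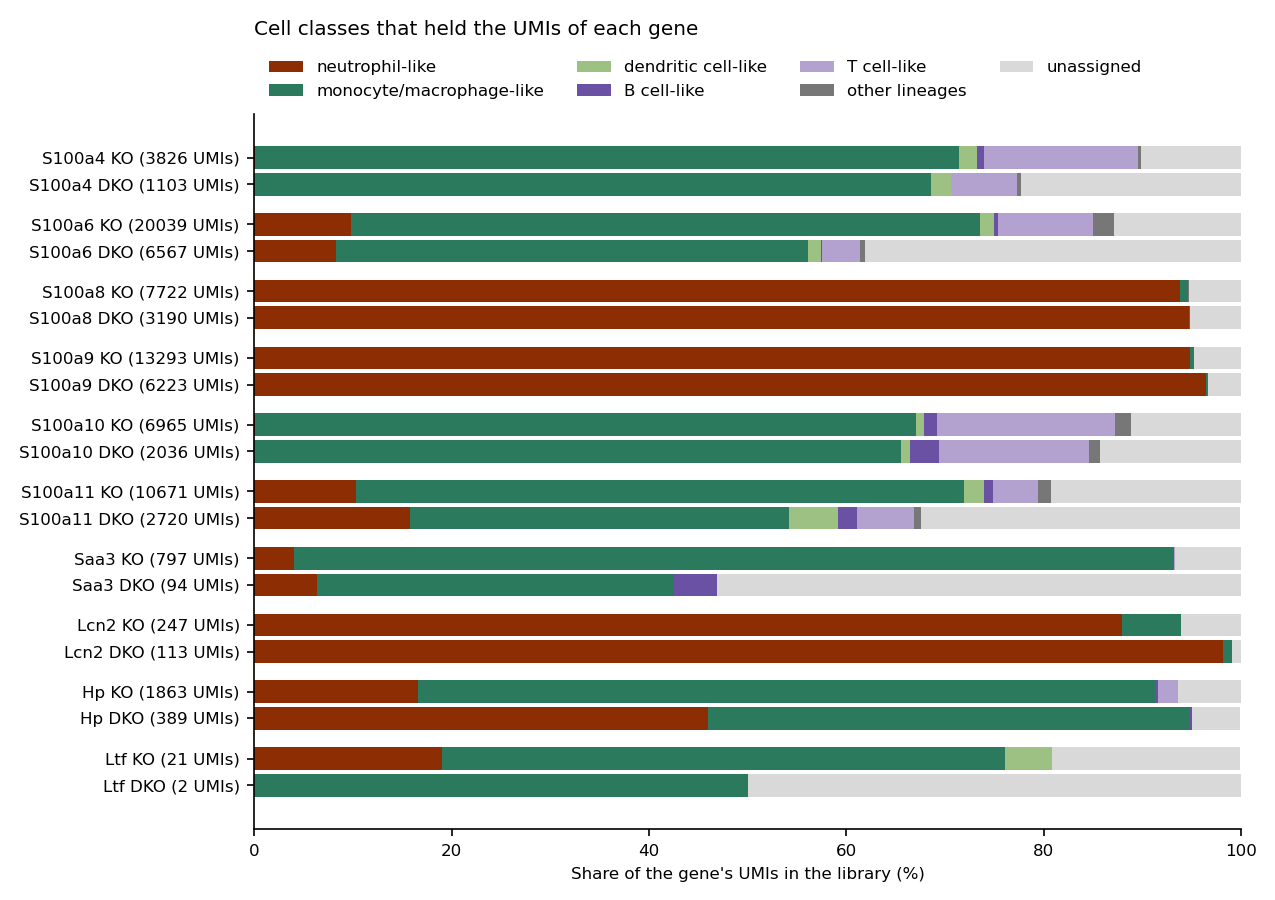
Share of the UMIs of each gene (x axis, percent of the gene's UMIs in that library) held by each cell class (colours), with 1 bar for each gene and library and the gene's total UMIs in brackets. Neutrophil-like cells held 93.8% of KO and 94.7% of DKO UMIs of S100a8, whereas monocyte/macrophage-like cells held 71.3% and 68.6% of those of S100a4.

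Neutrophil-like cells held 7241 of the 7722 S100a8 UMIs of KO (93.8%, interval 93.2 to 94.3) and 3020 of the 3190 of DKO (94.7%, 93.8 to 95.4). For S100a9 the shares were 94.8% of 13293 UMIs in KO and 96.5% of 6223 in DKO, and for Lcn2 they were 87.9% of 247 and 98.2% of 113. Most of the rest of S100a8 was in unassigned cells, which held 5.32% and 5.17% of its UMIs, whereas the rest of Lcn2 lay equally in unassigned and monocyte/macrophage-like cells (15 UMIs each in KO and 1 each in DKO). Within the unassigned cells, 7 KO cells and 2 DKO cells, in each of which the calprotectin pair made up at least 1% of UMIs, held 962 of 1042 and 362 of 374 UMIs of the pair. Those cells had a median of 2 neutrophil markers and 2 monocyte/macrophage markers in both libraries, short of the rule for either class.

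The level of S100a8 in neutrophil-like cells was 3404-fold that in monocyte/macrophage-like cells of KO, where 63 UMIs were found, and that of S100a9 was 7602-fold, against 49 UMIs. Lcn2 was 419-fold higher in neutrophil-like than in monocyte/macrophage-like cells of KO, at 804 against 1.86 CPM. S100a11 was also higher there, at 4086 against 816 CPM in KO and 5833 against 649 CPM in DKO. S100a6 was higher as well, at 7241 against 1587 CPM in KO and 7339 against 1956 CPM in DKO. Thus S100a6 and S100a11 were at their highest CPM in neutrophil-like cells among the classes plotted by level, but with few neutrophil-like cells of shallow depth, these held 9.76% of the S100a6 UMIs and 10.3% of the S100a11 UMIs of KO.

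S100a4 and S100a10 had the opposite pattern. S100a4 had 4 UMIs in the neutrophil-like cells of KO, all in 1 cell, and 0 in those of DKO, and S100a10 had 7 and 0. In monocyte/macrophage-like cells of KO the levels were 338 CPM for S100a4 and 579 CPM for S100a10, which were 20.3-fold and 20.8-fold those in neutrophil-like cells. The neighbours S100a4 and S100a6 therefore shared the monocyte/macrophage-like cells but not the neutrophil-like cells, where S100a4 made up 0.204% of the UMIs of the 2 genes in KO, against 17.6% in monocyte/macrophage-like cells.

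Levels differed along the split of the monocyte/macrophage-like cells, and S100a4, S100a6, S100a10, S100a11 and Hp were higher in monocyte-like than in macrophage-like cells of both libraries. S100a4 was at 913 CPM in monocyte-like, 369 CPM in intermediate and 109 CPM in macrophage-like cells of KO, and at 939.5, 638 and 145 CPM in DKO. S100a6 was at 3168, 1883 and 747 CPM in KO and at 3568, 2510 and 937 CPM in DKO. S100a10 was at 1058, 695 and 304 CPM in KO and at 1347, 1299 and 420.0 CPM in DKO. The intervals of these levels did not overlap within a library, except those of S100a10 in monocyte-like and intermediate cells of DKO. S100a11 was 2.47-fold higher in monocyte-like than in macrophage-like cells of KO and 3.49-fold higher in DKO.

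Hp had the widest such ratio of the 5 genes in KO. Its level was 446 CPM in monocyte-like cells, 167 CPM in intermediate and 43.2 CPM in macrophage-like cells of KO, a 10.3-fold difference from first to last (log2 3.36, interval 3.10 to 3.64). In DKO the levels were 324, 97.5 and 10.1 CPM, the last from 8 UMIs. Of the monocyte-like cells, 61.2% in KO and 49.4% in DKO had an Hp UMI, against 10.8% and 2.33% of macrophage-like cells, and after thinning to 1000 UMIs per cell the shares were 29.1% and 19.0% against 3.94% and 1.56%.

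**Figure D2:**
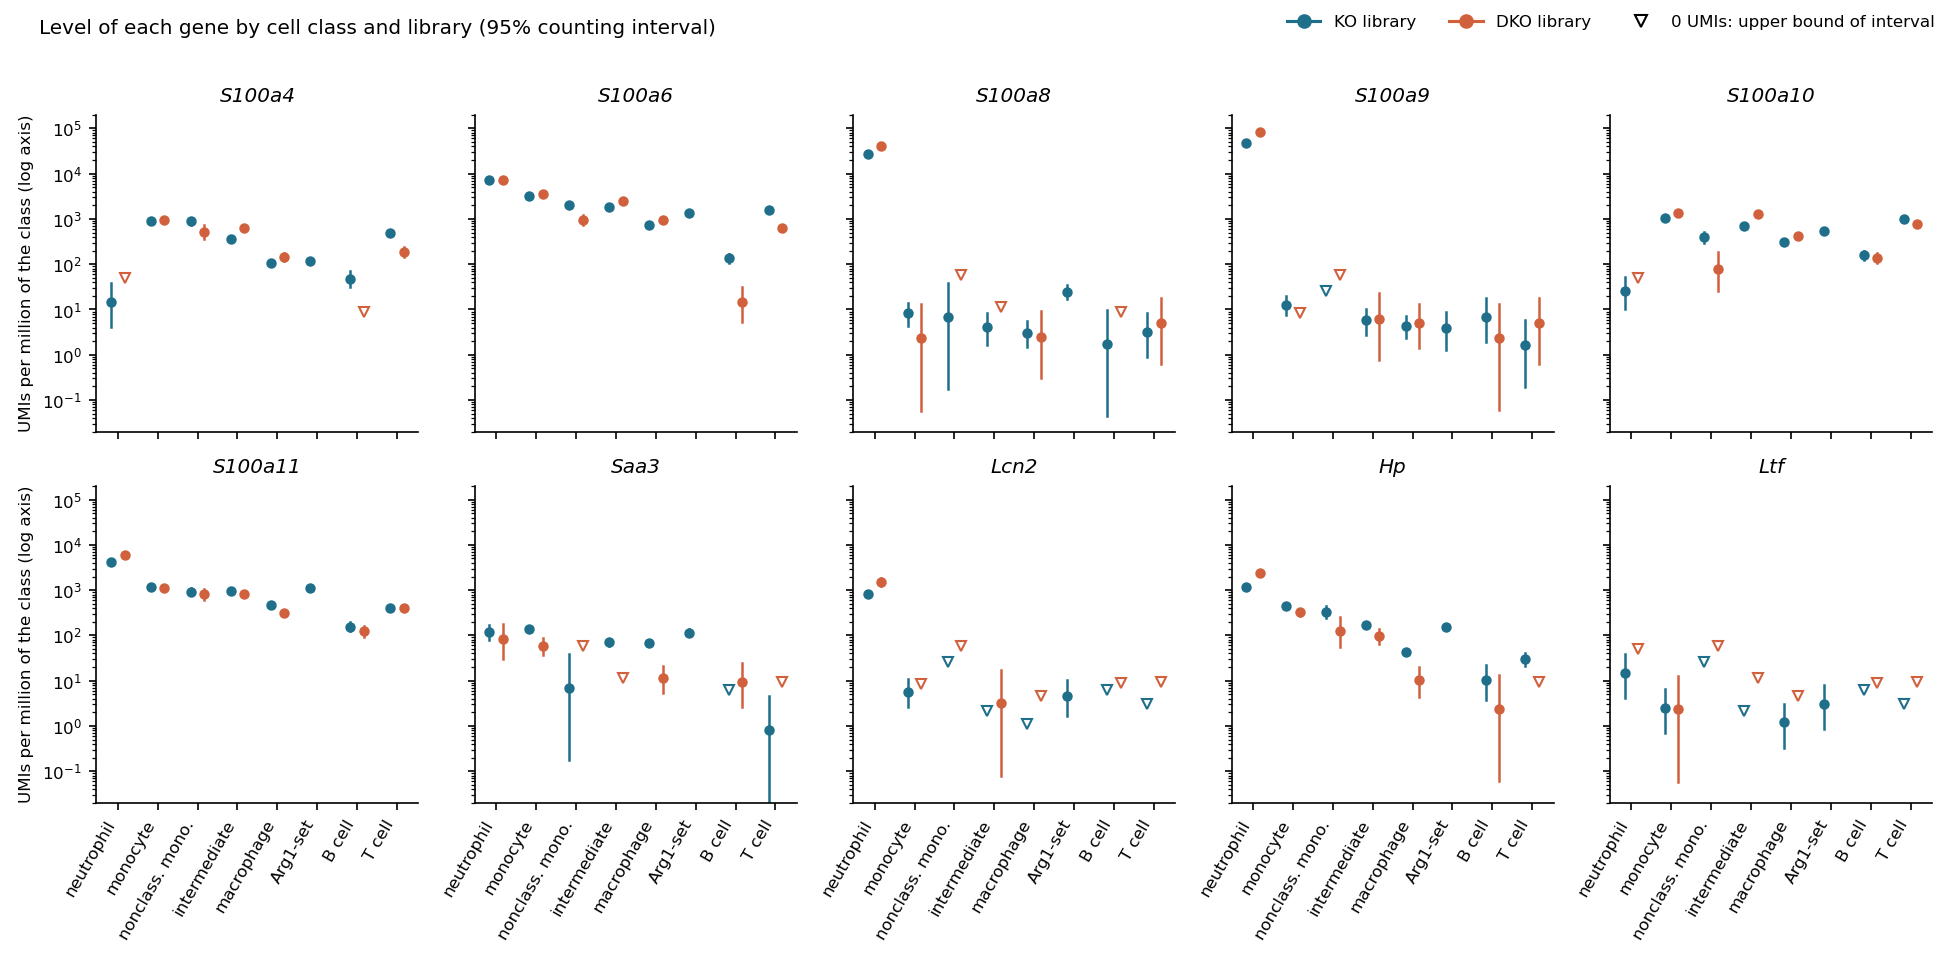
Level of each gene (y axis, CPM of the class, log scale) by cell class (x axis) in the KO and DKO libraries, with 95% Poisson intervals as vertical lines and, for 0 UMIs, an open triangle at the upper bound of the interval. The DKO Arg1-set is left out because it was 1 cell, and S100a4 and S100a10 stand lowest in the neutrophil-like class of KO, where S100a8, S100a9 and Lcn2 stand highest.

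Saa3 was found in few cells of each class. In monocyte/macrophage-like cells of KO, 711 UMIs lay in 112 of 1392 cells (8.05%), and 84 of them (11.8%) lay in 1 cell. In those of DKO, 34 UMIs lay in 9 of 285 cells (3.16%), with 13 of them (38.2%) in 1 cell. Of the DKO total of 94 UMIs, 50 lay in unassigned cells, and 46 of these were in 1 cell. Ltf, a gene of neutrophil granules that is made early in neutrophil development, had 21 UMIs in KO and 2 in DKO over all cells, too few to place in a class.

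The 184 Arg1-set cells of KO differed from the macrophage-like cells of the same library in several of the genes. S100a11 was at 1109 against 465 CPM, S100a6 at 1336 against 747 CPM, S100a10 at 555 against 304 CPM and Hp at 157 against 43.2 CPM, while S100a4 was at 117 against 109 CPM, within counting error. S100a8 was at 24.6 CPM in the Arg1-set against 3.04 CPM in macrophage-like and 8.22 CPM in monocyte-like cells. S100a9 did not follow it, at 3.85 CPM in the Arg1-set against 4.26 and 12.6 CPM.

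To judge how much of a low level could be free RNA, which enters droplets from broken cells, B cell-like and T cell-like cells were used as classes that should lack the neutrophil genes. In B cell-like and T cell-like cells together, S100a8 had 5 UMIs among 459 KO cells and 2 among 249 DKO cells, or 2.76 and 2.46 CPM, and S100a9 had 6 and 3 UMIs, or 3.31 and 3.69 CPM. Lcn2 and Ltf had 0 UMIs in both libraries, which with a floor of 3 counts allows up to 1.65 CPM in KO and 3.69 CPM in DKO. Saa3 had 1 and 4 UMIs. Against these values, S100a8 in macrophage-like cells (3.04 and 2.53 CPM) and S100a9 in macrophage-like cells (4.26 and 5.06 CPM) had intervals that overlapped those of the lymphoid classes. Levels above background were thus not shown for them, and their source was not tested.

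The share of cells with a UMI was also compared. An S100a8 UMI was found in 3.74% of monocyte/macrophage-like cells of KO (interval 2.80 to 4.87) and in 1.09% of B cell-like and T cell-like cells (0.355 to 2.52), whose median depths were 2490 and 3882 UMIs. After thinning to 1000 UMIs per cell the shares were 1.17% (0.670 to 1.89) and 0.659% (0.136 to 1.91), so that the difference lay within counting error. For S100a9 the thinned shares were 0.292% (0.0797 to 0.747) and 0.659% (0.136 to 1.91), the reverse of the order of its CPM and also within counting error, so no order is read from them. In the Arg1-set the thinned share for S100a8 was 3.80% (1.54 to 7.68), and its unthinned share was 12.5% (23 of 184 cells).

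A single source of free RNA keeps its genes in 1 ratio in every class of a library, so the share of S100a9 in the UMIs of the pair was compared. S100a9 made up 63.5% of the pair in neutrophil-like cells of KO (62.8 to 64.2), 60.6% in monocyte-like, 58.8% in intermediate and 58.3% in macrophage-like cells, and 54.5% in B cell-like and T cell-like cells, all with intervals that held the neutrophil value. The monocyte-like value rested on 1 cell with 14 S100a9 UMIs and 0 of S100a8, without which S100a9 made up 31.6% (6 of 19 UMIs, 12.6 to 56.6), below the neutrophil value. Without the cell that held the most UMIs of the pair, an alternative chosen after seeing the data, the share was 46.2% in intermediate and 54.5% in macrophage-like cells. In the Arg1-set it made up 13.5% (5 of 37 UMIs, 4.54 to 28.8), and 15.2% (5.11 to 31.9) without the cell with the most UMIs of the pair, below the neutrophil value but with an interval that overlapped that of monocyte-like cells without their cell of 14 UMIs. Of the Arg1-set cells, 22 had S100a8 without S100a9, 4 had S100a9 alone and 1 had both. Retnlg, a neutrophil marker, was at 8.56% of the sum of Retnlg and S100a8 in neutrophil-like cells of KO. In the Arg1-set it had 0 UMIs against 32 of S100a8 (0%, 0 to 10.9), an interval that held the neutrophil value. Lcn2 was at 2.91% of the sum of Lcn2 and S100a8 in neutrophil-like cells of KO (2.54 to 3.32). It was at 40.9% in monocyte-like cells (9 and 13 UMIs, 20.7 to 63.6) and 15.8% in the Arg1-set (6 and 32 UMIs, 6.02 to 31.3), both above the neutrophil value. In macrophage-like cells Lcn2 had 0 UMIs against 10 (0%, 0 to 30.8). The cause of these differences was not tested. Of the S100a8 UMIs found in monocyte/macrophage-like cells of KO, 50.8% lay in the Arg1-set.

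**Figure D3:**
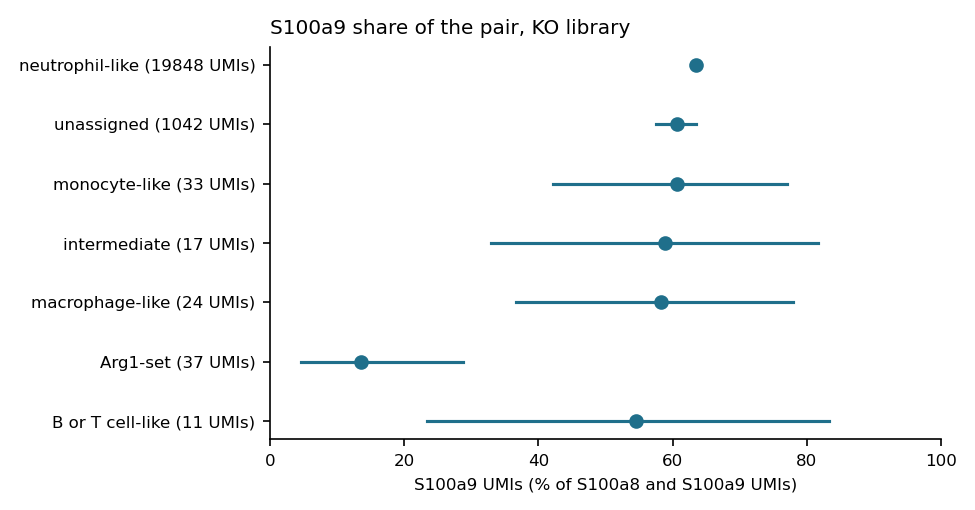
S100a9 UMIs as a percent of S100a8 and S100a9 UMIs (x axis) in each class of the KO library, with exact 95% binomial intervals and the UMIs of the pair in brackets. The Arg1-set, at 13.5%, has an interval that ends at 28.8%, while the unassigned cells, at 60.6%, reach up to the 63.5% of neutrophil-like cells.

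The other S100 genes were higher than these levels in both lymphoid classes of KO. S100a4, S100a6, S100a10 and S100a11 were at 482, 1560, 1019 and 401 CPM in T cell-like cells of KO and at 48.2, 134, 157 and 157 CPM in B cell-like cells of the same library. They were thus 9.83-fold, 11.5-fold, 6.46-fold and 2.54-fold higher in T cell-like than in B cell-like cells. An S100a10 UMI was found in 79.8% of T cell-like and 26.1% of B cell-like cells of KO. The B cell-like values of S100a4 and S100a6 rested on few cells, with 19 of 28 S100a4 UMIs and 34 of 78 S100a6 UMIs in 1 cell. In B cell-like cells of DKO, S100a4 had 0 UMIs, with an upper bound of 8.78 CPM, and S100a6 was at 14.3 CPM. Hp was at 10.3 CPM in B cell-like cells of KO and at 2.38 CPM, from 1 UMI, in those of DKO.

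Next, DKO was compared with KO within the neutrophil-like cells. The calprotectin genes, Lcn2, Hp and S100a11 were higher in DKO, while S100a6 was at the same level within counting error. S100a8 was at 26821 CPM in the KO library and at 40969 CPM in the DKO library (log2 of DKO over KO 0.61, interval 0.55 to 0.67). S100a9 was at 46697 and 81462 CPM (0.80, 0.76 to 0.85). Lcn2 was at 804 and 1506 CPM (0.91, 0.56 to 1.24), and S100a11 was at 4086 and 5833 CPM (0.51, 0.35 to 0.68). Hp was at 1145 and 2428 CPM, the ratio furthest from 0 among the 7 members with at least 10 UMIs (1.09, 0.81 to 1.36). S100a6 was at 7241 and 7339 CPM (0.02, -0.12 to 0.16).

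Of these 7, 1 was at least 2-fold higher in DKO, as were 7.33% of the 2811 genes compared, and 0 were at least 2-fold lower, as were 15.1% of all. The interval lay above 0 for 5 of the 7 and below 0 for none, against 4.27% and 7.47% of all genes. Intervals narrow as UMIs rise, and all genes include those near 10 UMIs, so these shares are not matched for abundance. The median log2 ratio of the 7 was 0.61 and that of all genes -0.07. Saa3, with 32 UMIs over 4 cells of KO and 6 over 1 cell of DKO, was at 119 and 81.4 CPM (-0.45, -2.09 to 0.74). Its ratio was 2.45 with Seurat clusters in place of the marker gate and -3.32 without the cell with the most UMIs in each library, which left 0 UMIs in DKO and is no bound, so no direction is read for Saa3. S100a4, S100a10 and Ltf were below the minimum of 10 UMIs.

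The calprotectin genes took up a large share of these small transcriptomes. S100a8 and S100a9 together were 7.35% of the UMIs of the neutrophil-like cells of KO and 12.2% of those of DKO. Per cell, their share ran from 0% to 38.3% in KO, with a median of 4.65%, and from 0% to 31.0% in DKO, with a median of 8.71%. They made up at least 10% of the UMIs in 39 of 151 cells in KO (25.8%, 19.1 to 33.6) and in 18 of 42 in DKO (42.9%, 27.7 to 59.0), and were absent from 15 and 2 cells. The ranges of the libraries overlapped over almost their whole length. With both genes left out of the class totals, the log2 ratios were 0.69 for S100a8, 0.88 for S100a9, 0.59 for S100a11, 0.99 for Lcn2 and 1.17 for Hp.

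**Figure D4:**
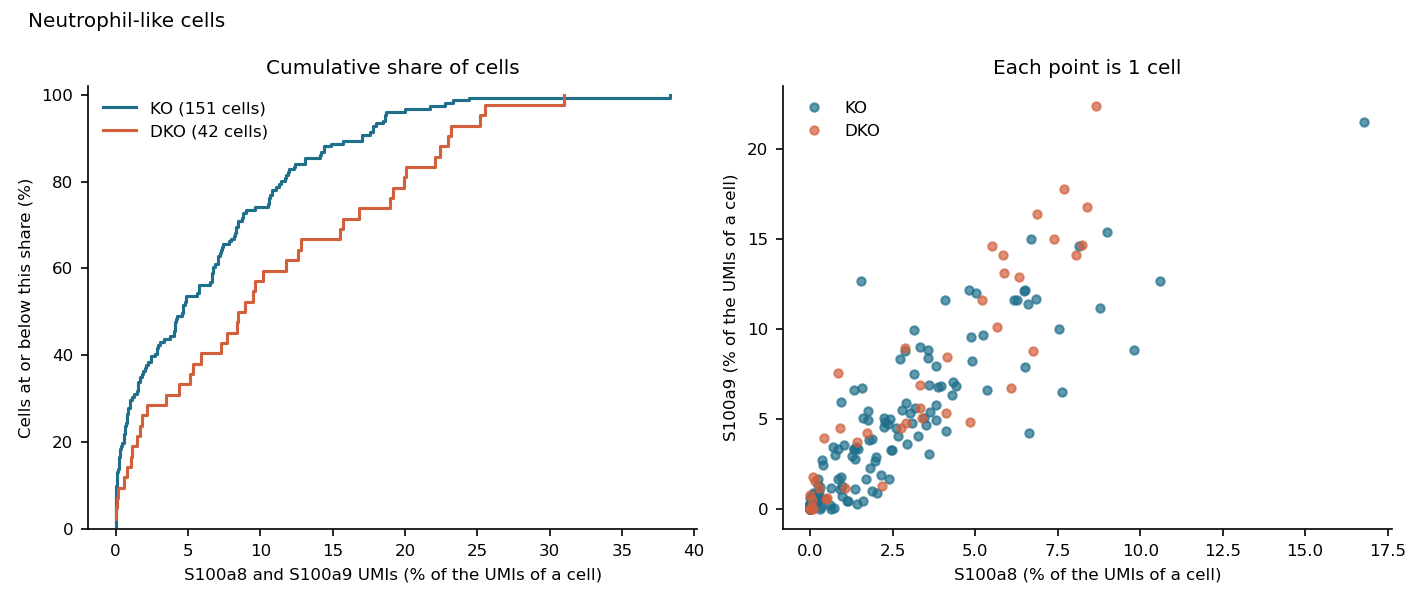
Left, the percent of neutrophil-like cells (y axis) at or below a given share of S100a8 and S100a9 UMIs (x axis, percent of the UMIs of the cell) in each library. Right, the share of S100a8 (x axis) against that of S100a9 (y axis) in each cell, where the points of both libraries lie along 1 band and the DKO curve on the left lies to the right of the KO curve below 31.0%.

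Across cells the pair varied together. Thinned to 1000 UMIs, the Spearman correlation of S100a8 with S100a9 was 0.90 over 142 KO cells and 0.94 over 41 DKO cells, cells that share a library, as a description. It was 0.39 and 0.38 for S100a8 with Lcn2, and 0.24 and 0.20 for S100a8 with Hp. S100a9 was the more abundant of the pair in UMIs in both libraries, at 63.5% of the sum in KO and 66.5% in DKO.

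Monocyte/macrophage genes also differed between the neutrophil-like classes of the libraries. The 8 monocyte/macrophage markers summed to 1341 CPM in KO, with all 8 detected, and to 2469 CPM in DKO, with 5 of 8 detected. Most of the DKO sum was Lyz2, a marker that neutrophils also make, at 889 and 1913 CPM. The part of these differences in the ratios of Hp, Lcn2 and the calprotectin genes was not tested. The summed neutrophil markers were alike, at 21706 and 21759 CPM, but the single markers went apart. Retnlg, a resistin-like secreted protein, was at 2511 and 5955 CPM (1.25, 1.07 to 1.42), and Hdc, which makes histamine, was at 2978 and 4029 CPM (0.44, 0.24 to 0.63). G0s2, an inhibitor of lipolysis, was at 11712 and 7488 CPM (-0.64, -0.78 to -0.51), and Stfa2l1 at 478 and 285 CPM (-0.72, -1.49 to -0.07). The part of these differences was not tested either.

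Other genes of neutrophils did not share 1 direction. Of 16 granule and cytosol genes, 7 passed the minimum, 2 were at least 2-fold higher in DKO and 1 at least 2-fold lower. Of all genes compared in these cells, 7.33% were at least 2-fold higher and 15.1% at least 2-fold lower. Lyz2, which encodes lysozyme, had a log2 ratio of 1.11 (0.79 to 1.41), and Pglyrp1, a peptidoglycan-binding granule protein, 0.81 (0.32 to 1.27). Stfa1, a cysteine protease inhibitor, had a ratio of -1.80 (-3.88 to -0.53). Slpi and Wfdc21, also neutrophil genes, were at 0.01 (-0.23 to 0.24) and -0.06 (-0.40 to 0.27). Among regulators of acute-phase genes, 7 of 11 passed and 0 reached 2-fold, and Cebpb, the most abundant, was at 9334 and 7027 CPM (-0.41, -0.55 to -0.27). Of 3 annexins, 2 passed and 1, Anxa1, reached 2-fold (141 and 298 CPM, 1.10, 0.26 to 1.88). Of 8 iron-handling genes, 6 passed, with 1 at least 2-fold higher and 1 lower, and Fth1, a ferritin subunit, was at 47638 and 55335 CPM (0.22, 0.16 to 0.27). None of the 5 receptor genes and 0 of 1 other S100 gene that passed reached 2-fold, and 0 of 7 other acute-phase genes passed. The genes of these lists at least 2-fold apart on fewer than 50 UMIs, named after their values were seen, were Mmp8 (18 and 13 UMIs), Trf (24 and 17) and Hmox1 (18 and 1).

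In monocyte/macrophage-like cells the genes divided. By CPM, S100a4, S100a6 and S100a10 were higher in DKO by less than 2-fold, and S100a11 and Hp were lower by less than 2-fold. Saa3 was lower by more, as was S100a8 on few UMIs. S100a4 was at 338 CPM in KO and 470.4 CPM in DKO (log2 0.48, interval 0.36 to 0.59). S100a6 was at 1587 and 1956 CPM (0.30, 0.24 to 0.36). S100a10 was at 579 and 829 CPM (0.52, 0.43 to 0.61), and its partner Anxa2 at 284 and 372 CPM (0.39, 0.26 to 0.52). After thinning to 1000 UMIs, a UMI was found in 57.7% of KO and 59.4% of DKO cells for S100a6. For S100a10 the shares were 35.5% and 35.2%, and for S100a4 they were 23.0% and 29.2%. The higher CPM of S100a6 and S100a10 in DKO was thus not seen as a larger share of cells with a UMI. S100a11 was at 816 and 649 CPM (-0.33, -0.42 to -0.23). Hp was at 173 and 118 CPM (-0.54, -0.77 to -0.33).

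Saa3 had the widest gap with an interval clear of 0, at 88.2 CPM from 711 UMIs in the KO library and 21.1 CPM from 34 UMIs in the DKO library (-2.04, -2.60 to -1.57). S100a8 was at 7.82 CPM from 63 UMIs and 1.86 CPM from 3 UMIs (-1.86, -4.38 to -0.46). The DKO level did not lie above that of B cell-like and T cell-like cells of DKO together. Of the 63 KO UMIs, 32 lay in the Arg1-set, and with that set left out of both libraries the ratio was -1.09, for which no interval was computed. With clusters in place of the marker gate it was -3.75, and that of S100a9 moved from -0.60 to -2.71. With the marker gate, S100a9 (-0.60, -2.22 to 0.52), Lcn2 (15 and 1 UMIs, -1.05, -6.98 to 1.12) and Ltf (12 and 1 UMIs, -0.73) had intervals that held 0. Leaving out the Arg1-set moved the ratio of S100a4 to 0.31, of S100a11 to -0.23 and of Saa3 to -1.95.

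Of the 10 members, all of which reached 10 UMIs, 0 were at least 2-fold higher in DKO, as were 6.20% of the 10654 genes compared, and 3 (Saa3, S100a8 and Lcn2) were at least 2-fold lower, as were 4.62% of all. The interval lay above 0 for 3 members and below 0 for 4, against 13.5% and 7.92% of all genes. As in neutrophil-like cells, these shares are not matched for abundance. The median was -0.57 over the members and 0.11 over all genes. Neutrophil markers summed to 371 CPM in these cells of KO, with 7 of 8 detected and Stfa2l1 at 0, and to 285 CPM in DKO, with 6 of 8 detected and Retnlg and Stfa2l1 at 0. With every cell that had a neutrophil marker left out, which kept 537 KO cells and 138 DKO cells, the ratios of S100a4 and S100a6 were 0.13 and 0.12. That of S100a10 was 0.42 and that of S100a8 was -1.08. The median monocyte/macrophage-like cell had 1 neutrophil marker in both libraries. Of the 2991 marker UMIs in KO, Retnlg gave 2, Cxcr2 19 and Mmp9 22, so most came from the other markers. Whether the cells left out held neutrophil RNA was not tested.

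**Figure D5:**
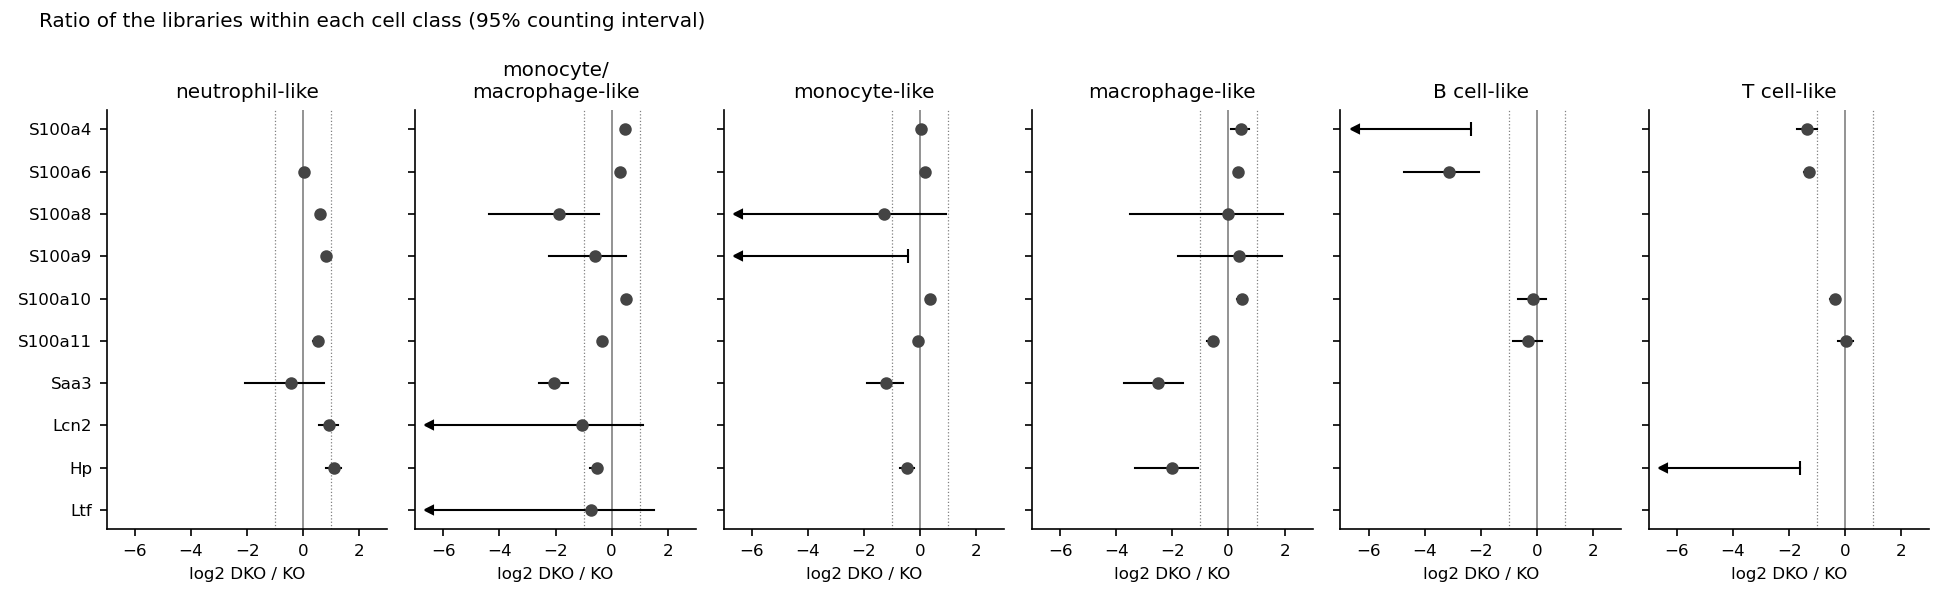
Log2 ratio of DKO over KO (x axis) for each gene (y axis) in 6 cell classes, with 95% counting intervals. Genes below 10 UMIs in a class are left out, arrows mark intervals that run past the axis, a tick at the end of an arrow without a point marks the upper bound where DKO had 0 UMIs, and dotted lines mark 2-fold. S100a8, S100a9, Lcn2 and Hp lie right of 0 in neutrophil-like cells, while Saa3 and Hp lie left of 0 in monocyte-like and macrophage-like cells.

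The split of these cells showed where the differences lay. In monocyte-like cells S100a4 (0.04, -0.12 to 0.20) and S100a11 (-0.07, -0.22 to 0.08) were alike in the libraries within counting error, while S100a6 was at 3168 and 3568 CPM (0.17, 0.09 to 0.25) and S100a10 at 1058 and 1347 CPM (0.35, 0.21 to 0.48). Saa3 was at 135 CPM, from 37 cells, and 57.9 CPM, from 4 cells (-1.20, -1.89 to -0.62), and Hp at 446 and 324 CPM (-0.46, -0.73 to -0.20). S100a8 had 13 UMIs in KO and 1 in DKO (-1.30, -7.24 to 0.91). S100a9 had 20 UMIs in 7 KO cells, 14 of them in 1 cell, and 0 in DKO. A floor of 3 counts puts S100a9 at 1.82-fold lower, but UMIs that share a cell are not independent, so no bound is read. Of the 8 members with 10 UMIs, 0 were at least 2-fold higher (5.67% of all genes). With 0.5 counts added to each sum, 3, S100a8, S100a9 and Saa3, were at least 2-fold lower (5.94%), although the floor puts S100a9 only at 1.82-fold. With the cells that had a neutrophil marker left out, which kept 133 KO cells and 36 DKO cells, Saa3 was at -0.26 and the count of lower members was 0.

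In macrophage-like cells Saa3 and Hp were the members at least 2-fold lower in DKO, 2 of the 8 with 10 UMIs, against 4.33% of all genes, and 0 were at least 2-fold higher, against 6.85%. Saa3 was at 68.2 CPM in KO, where 84 of 224 UMIs lay in 1 cell, and at 11.4 CPM in DKO (-2.51, -3.73 to -1.63). A Saa3 UMI was found in 26 of 519 KO cells (5.01%) and 5 of 129 DKO cells (3.88%). After thinning to 1000 UMIs the shares were 2.36% (1.23 to 4.09) and 2.34% (0.486 to 6.70), alike within counting error. The lower CPM of DKO was thus not seen as a smaller share of cells with a UMI. Hp was at 43.2 CPM in KO and 10.1 CPM in DKO, with 142 and 8 UMIs (-2.01, -3.33 to -1.08), and at -0.90 without the cells that had a neutrophil marker. S100a11 was at 465 and 314 CPM (-0.56, -0.77 to -0.37). S100a4 (0.43, 0.10 to 0.73), S100a6 (0.33, 0.21 to 0.45) and S100a10 (0.47, 0.29 to 0.65) were higher in DKO. Without the cells that had a neutrophil marker, which kept 178 KO cells and 59 DKO cells, their ratios were 0.02, -0.07 and -0.12. The median macrophage-like cell had 1 neutrophil marker in both libraries, and the part of neutrophil RNA in these ratios was not tested. S100a8 and S100a9 were not shown to lie above the levels of the lymphoid classes in either library. With clusters in place of the marker gate, their ratios moved from -0.02 to -2.28 and from 0.37 to -1.28.

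Intermediate cells had the widest differences of S100a4 and S100a10 among the classes of monocyte/macrophage-like cells in which DKO was higher. S100a10 was at 695 CPM in KO and 1299 CPM in DKO (0.90, 0.74 to 1.06), and S100a4 at 369 and 638 CPM (0.79, 0.55 to 1.02). Saa3 had 122 UMIs, spread over 24 cells, in KO and none in the 61 cells of DKO, at least 7.40-fold lower against a floor of 3 counts. With 0.5 counts added to each sum, Saa3 was the 1 of 7 members with 10 UMIs at least 2-fold lower, as were 7.65% of all genes. For the higher direction, 0 were at least 2-fold higher, as were 9.56%.

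Nonclassical monocyte-like cells, a patrolling type of which there were 32 and 15, went the other way for 3 S100 genes. S100a10 was at 397 CPM in KO and 79.5 CPM in DKO, with 58 and 5 UMIs (-2.20, -4.00 to -1.02). S100a6 was at 2082 and 954 CPM (-1.12, -1.55 to -0.72), S100a4 at 883 and 525 CPM (-0.73, -1.35 to -0.19) and Hp at 336 and 127 CPM (-1.33, -2.69 to -0.31). Of the 5 members with 10 UMIs, 3 were at least 2-fold lower, against 13.2% of all genes, and 0 were at least 2-fold higher, against 10.4%. With so few cells, 22 of the 60 S100a6 UMIs of DKO came from 1 cell.

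Among the related genes of monocyte/macrophage-like cells, all 3 annexins had intervals above 0, with Anxa1 at 114 and 169 CPM (0.58, 0.37 to 0.77) and Anxa5 at 387 and 447 CPM (0.21, 0.09 to 0.33). Of all genes in these cells, 13.5% had intervals above 0, 6.20% were at least 2-fold higher and 4.62% at least 2-fold lower. Of the 16 granule and cytosol genes 9 passed, 0 were at least 2-fold higher and 3 at least 2-fold lower, and Slpi, a secreted protease inhibitor, was at 482 and 154 CPM (-1.64, -1.84 to -1.46). The others, Mmp8 (38 and 2 UMIs) and Wfdc21 (28 and 0), had fewer than 50 UMIs and are named after their values were seen. The count includes Wfdc21 through the 0.5 counts added to each sum, and the floor of 3 counts bounds it only at 1.86-fold lower. Of 10 receptor genes 8 passed, with 3 at least 2-fold higher and 1 lower. Of these, Cd163 (4 and 8 UMIs) and Cxcr2 (19 and 10) had fewer than 50 UMIs and are named after their values were seen. Cxcr2 is also 1 of the 8 neutrophil markers. Cd36, a scavenger receptor that binds serum amyloid A, was at 53.7 and 155 CPM (1.53, 1.29 to 1.75), and Fpr2, a formyl peptide receptor that also binds serum amyloid A, was at 45.7 and 19.3 CPM (-1.22, -1.82 to -0.72). Tlr4, a receptor of calprotectin, was at 27.3 CPM in both (0.02, -0.50 to 0.47).

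The regulators Cebpb (2069 and 2105 CPM, 0.02, -0.03 to 0.08) and Nfkbiz (168 and 161 CPM, -0.06, -0.26 to 0.13) were alike in these cells within counting error, and of 11 regulators 1 was at least 2-fold higher and 1 lower (Cebpe, 33 and 15 UMIs, and Il1r1, 12 and 0, named after their values were seen). Il1r1 was counted through the 0.5 counts added, and its 1.49 CPM in KO lay below the DKO floor of 1.86 CPM, so no fold is given. Of 8 iron-handling genes 7 passed and 0 reached 2-fold, with Fth1 at 33856 and 21721 CPM (-0.64, -0.66 to -0.62) and Trf, which encodes transferrin, at 1320 and 164 UMIs (-0.68, -0.93 to -0.45). The other acute-phase genes were close to absent. Saa1, Saa2, Orm2, Ptx3 and Fgb had 0 UMIs in both libraries, and Cp, which was the 1 of 7 that passed, had 32 and 20 UMIs. Of 8 other S100 genes 2 passed and 0 reached 2-fold, S100a1 at 60.2 and 60.9 CPM and S100a13 at 172 and 175 CPM.

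In T cell-like cells S100a4 and S100a6 were lower in DKO. S100a4 was at 482 CPM in KO and 188 CPM in DKO (-1.35, -1.73 to -1.01), with a UMI in 42.5% and 19.6% of cells. S100a6 was at 1560 and 638 CPM (-1.29, -1.48 to -1.10), S100a10 at 1019 and 786 CPM (-0.37, -0.56 to -0.19) and S100a11 at 401 and 402 CPM (0.01, -0.26 to 0.27). Hp had 37 UMIs in 6 KO cells, of which 29 were in 1 cell, and 0 in DKO. A floor of 3 counts puts Hp at 3.93-fold lower, but no bound is read from UMIs that share so few cells. These 3 of 5 members with 10 UMIs were at least 2-fold lower against 12.8% of all genes, and 0 were at least 2-fold higher against 5.76%. With clusters in place of the marker gate the count of lower members was 0, with S100a4 at -0.72 and S100a6 at -0.98.

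Markers of other cell types moved with these genes. The 8 markers of NK cells and innate lymphoid cells summed to 1797 CPM in T cell-like cells of KO, with 7 of 8 detected and Ncr1 at 0, and to 544 CPM in DKO, with 6 of 8 detected and Ncr1 and Gzma at 0. Most of the KO sum was Gzma, which encodes the cytotoxic protease granzyme A, with 1316 UMIs (1067 CPM) in KO and 0 in DKO. Klre1, an NK cell receptor gene, was at 68.1 and 17.8 CPM (-1.85, -3.29 to -0.83), whereas Txk, a kinase gene that T cells also use, was at 96.5 and 114 CPM (0.26, -0.28 to 0.75). The T cell-like classes of the libraries thus differed in these markers. In the 49 KO cells and 27 DKO cells that had none of the 8, an alternative chosen after seeing the data, the ratio was -0.70 for S100a4, -1.92 for S100a6, -0.30 for S100a10 and 0.65 for S100a11. Monocyte/macrophage markers summed to 108 CPM in T cell-like cells of KO, with 7 of 8 detected and Adgre1 at 0, and to 12.7 CPM in DKO, with 3 of 8 detected. Without the T cell-like cells that had a Lyz2 UMI, the ratio was -1.35 for S100a4 and -1.39 for S100a6.

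In B cell-like cells S100a4 had 28 UMIs in 3 of the 207 KO cells, 19 of them in 1 cell, and 0 in the 152 DKO cells. A floor of 3 counts puts this at 6.75-fold lower, but UMIs that share a cell are not independent, so no bound is read. S100a6 had 78 UMIs in KO, 34 of them in 1 cell, and 6 in DKO, at 134 and 14.3 CPM (-3.13, -4.72 to -2.05). With the cells of highest doublet score left out, at 5% per library, the ratio of S100a6 was -1.09. S100a10, found in 26.1% and 23.7% of cells, was at 157 and 140.5 CPM (-0.15, -0.66 to 0.33), and S100a11 at 157 and 124 CPM (-0.33, -0.86 to 0.17). Thus 2 of the 4 members with 10 UMIs were at least 2-fold lower, against 5.36% of all genes, and 0 were at least 2-fold higher, against 5.70%. Monocyte/macrophage markers summed to 146 CPM in B cell-like cells of KO, with all 8 detected, and 42.9 CPM in DKO, with 5 of 8 detected, and their part in the S100a4 and S100a6 values was not tested.

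The genes whose levels ran most like each member were named from Pearson correlations of log2(CPM + 10) over 18 profiles, each 1 class of 1 library, and are given as a description. S100a8 was closest to Wfdc21 (0.997), Il1f9 (0.996) and Slc40a1 (0.993), S100a9 to Mrgpra2b (0.996), and Lcn2 to Mrgpra2b (0.995) and the neutrophil marker Retnlg (0.993). Saa3 was closest to Gpr84 (0.937), Hp to Slfn1 (0.929), S100a11 to Upp1 (0.932) and S100a10 to H2afy (0.914). S100a6 was closest to Anxa2 (0.915), and S100a4 to Crybg1 (0.888). The values above 0.99 belong to genes close to absent outside neutrophil-like cells and so rest on the contrast of 2 profiles with 16 others.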

How the data were processed

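The authors ran Cell Ranger 6.0.1 on 3′ reads with build mm10 and deposited its raw UMI count matrices, 1 library per genotype, with Seurat 4.3.0 named for later steps. UMIs count molecules, so PCR copies count once, and no correction for free RNA was seen in the counts. Per the study's methods, cells were kept if they had 300 to 5000 genes and a mitochondrial share of 10% or less. A cell took the lineage, of 9 with 8 markers each, with at least 3 markers detected and at least 2 more than the next, and monocyte/macrophage-like cells with 2 or more dendritic cell markers were left unassigned. Monocyte/macrophage-like cells were split by a lead of 2 monocyte or macrophage markers, or by 3 of 6 nonclassical or 3 of 8 Arg1-set markers, the last taking precedence. The members, markers and lists were chosen with earlier results of these data known.

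UMIs were summed per class and library and scaled to CPM with Python 3.11.15, numpy 2.4.6, scipy 1.17.1 and pandas 2.3.3. Ratios are log2 of DKO over KO with 0.5 counts added, given where the class sums of the libraries together reached 10 UMIs. Intervals at 95% are exact (Poisson for levels, Clopper-Pearson for shares, conditional binomial for ratios) and cover counting error only, and a sum of 0 was set against a floor of 3 counts. For levels and ratios, the intervals and the floor take UMIs as independent, also where many share 1 cell. Cells were also thinned to 1000 UMIs. Related genes were named if they had at least 50 UMIs in the class, from 7 lists of 63 genes, and the 3 most similar genes were found for each member with at least 50 UMIs. The ratio calculation was tested on simulated data. Doublets were not removed, since Scrublet (scanpy 1.11.5) called 9 KO and 0 DKO barcodes, and 110 and 23 high-scoring cells were left out as an alternative. Other alternatives used Seurat 5.3.0 clusters (R 4.3.3) and TMM scaling (edgeR 4.0.16). No test between genotypes was run.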

Additional observations from a re-analysis of the deposited data

Results flagged for a closer look

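Several members had ratios of DKO over KO on opposite sides of 0 in different cell classes. With 1 library per genotype the difference between classes was not tested. All values are log2 ratios.

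S100a4 was at 0.48 in monocyte/macrophage-like cells, at -1.35 in T cell-like cells and at -5.37 in B cell-like cells, where the last value came from 28 UMIs in KO and 0 in DKO and is no bound. S100a6 was at 0.30 in monocyte/macrophage-like, -1.29 in T cell-like and -3.13 in B cell-like cells. S100a10 was at 0.52 in monocyte/macrophage-like and -0.37 in T cell-like cells.

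S100a8 was at 0.61 in neutrophil-like and -1.86 in monocyte/macrophage-like cells, the latter from 63 and 3 UMIs. The DKO level behind the latter did not lie above that of B cell-like and T cell-like cells of DKO together. S100a11 was at 0.51 in neutrophil-like and -0.33 in monocyte/macrophage-like cells. Hp was at 1.09 in neutrophil-like and -0.54 in monocyte/macrophage-like cells, and at -4.58 in T cell-like cells, from 37 UMIs in KO, 29 of them in 1 cell, and 0 in DKO, which is no bound.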

How the results depend on the processing

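Of 368 member ratios recomputed under an alternative, 316 moved by less than their counting interval, 52 moved by more, and no ratio of at least 2-fold changed sign. The shares of all genes at least 2-fold higher or lower, set beside the member counts, were less stable to the minimum of UMIs. With a minimum of 50 UMIs, 12 recomputed shares moved, and with no minimum 7 moved and 5 did not. These shares therefore hold for the minimum used here. The count of members at least 2-fold higher in DKO neutrophil-like cells, 1 as reported, was 0 with TMM scaling (Hp at 0.98), 2 with clusters in place of the marker gate (Saa3 at 2.45) and 2 with a minimum of 4 markers. The count at least 2-fold lower there, 0 as reported, was 1 without the top cell of each gene, with Saa3 at -3.32. The lower count in monocyte/macrophage-like cells, 3 as reported, was 5 with clusters. In monocyte-like cells it was 3, and 1 with the B cell level subtracted and 0 without cells that had a neutrophil marker. In macrophage-like cells the lower count of 2 was 1 without those cells, 4 with clusters and 4 with a margin of 1 marker, and the higher count of 0 was 2 with the B cell level subtracted. In B cell-like cells the lower count of 2 was 1 without the top cell, with clusters and without high doublet scores. In T cell-like cells the count of 3 was 0 with clusters, with S100a4 at -0.72 and S100a6 at -0.98, and 1 without cells that had an NK or innate lymphoid marker. The cause of these shifts was not tested. TMM moved all ratios by -0.11 in neutrophil-like, -0.13 in monocyte/macrophage-like and -0.15 in macrophage-like cells. Leaving out the Arg1-set, S100a8 and S100a9 from the totals, or T cell-like cells with a Lyz2 UMI or an NK or innate lymphoid marker were alternatives chosen after seeing the data. No paired analysis was possible because there was 1 library per genotype and no result comes from a test. Counts of at most 6 UMIs limit S100a8, S100a9, Lcn2 and Ltf in monocyte/macrophage-like and lymphoid cells of DKO.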

Other observations

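Unassigned cells differed in S100a6, at 1421 CPM in KO and 3174 CPM in DKO (log2 1.16, 1.08 to 1.24), where they held 12.9% and 38.1% of its UMIs. S100a11 was at 1132 and 1119 CPM in the same cells (-0.02, -0.13 to 0.10). The single DKO cell with the most S100a6 among them held 293 of 2502 UMIs (11.7%).

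The share of S100a6 in the UMIs of S100a6 and S100a11 was 61.6% in macrophage-like cells of KO (60.1 to 63.2) and 74.9% in those of DKO (72.1 to 77.6), and in T cell-like cells it was 79.6% (77.9 to 81.2) and 61.4% (56.5 to 66.1). In the 11 epithelial cell-like cells of KO, S100a6 was at 2803 CPM, with 180 of 317 UMIs in 1 cell, and S100a4 had 0 UMIs.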
